A study of Rattus norvegicus with 24 samples.

Results

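The voltage-gated sodium and calcium channel genes described here are every gene of the expression table whose symbol starts with Scn or Cacn and names a pore-forming or an accessory subunit of these channels. They number 40 of the 17711 genes in the table, 14 for sodium channels and 26 for calcium channels, and 1 of them, Cacng8, shares its entry with Mir935. RNA was sequenced from 2 tissues, striatum and whisker follicle, of male Sprague-Dawley rats. The MA group pressed a lever for intravenous infusions of methamphetamine (MA) dissolved in saline in daily sessions. The SA group pressed the same lever for saline alone (SA), and both groups had earlier been trained on the lever with food pellets and had undergone catheter surgery. Each tissue gave 6 MA and 6 SA libraries, and expression is given as FPKM, a fragment count scaled for transcript length and library size. Libraries are named here by the index of their column, 0 to 5, and which rat an index stands for is not given.

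A voltage-gated sodium channel is 1 large alpha subunit that forms the pore, joined by small beta subunits that tune its gating and anchor it in the membrane, and it carries the upstroke of the action potential. A voltage-gated calcium channel is built on an alpha1 pore with an intracellular beta subunit and an extracellular alpha2delta subunit that bring it to the surface, and it couples electrical activity to transmitter release, gene expression and contraction. Several of the gamma subunit genes encode TARPs, proteins that accompany AMPA-type glutamate receptors rather than calcium channels in the brain. The medium spiny neuron, the projection neuron of the striatum, depends on these channels for its firing, and a hair follicle is made mainly of epithelial cells that do not fire action potentials.

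The labels were first set against marker genes. In the striatum, all 10 medium spiny neuron markers had a mean FPKM of at least 1 in both groups, with a summed level of 2420 to 6139 in SA and 2440 to 5801 in MA libraries. In the whisker follicle, 7 of 7 hair shaft keratinocyte markers in the table reached this level, with sums of 15558 to 77062 in SA and 33303 to 74361 in MA, against 0.816 to 20.1 and 0.856 to 2.79 in the striatum. Of the neuronal marker entries, 10 of 11 reached a mean of 1 in the striatum of either group, and 2 (SA) and 1 (MA) of 11 did in the follicle. Whisker SA library 5 stood apart from the other follicle libraries by carrying striatal transcripts at low level, and striatum SA library 4 and MA library 5 stood apart by low medium spiny neuron markers, as described with the results they touch. In bulk tissue, fewer cells of a type cannot be told apart from less RNA per cell.

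In the striatum 30 of the 40 channel genes had a mean FPKM of at least 1, and 36 were above 0 in all 12 libraries. In the whisker follicle 2 genes reached a mean of 1, 12 were above 0 in all 12 libraries, and 7 were listed at 0 throughout (Cacng1, Cacng4, Cacng5, Cacng6, Scn7a, Scn9a and Scn10a). By their sums, the 40 genes held between 0.229% and 0.428% of the summed FPKM of an SA striatum library and between 0.206% and 0.432% of an MA one. In the follicle they held 0.00217% to 0.00439% (SA) and 0.00214% to 0.00485% (MA).

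Accessory subunits stood at the top of the striatal order, and pores stood lower. Scn4b, a beta subunit that promotes resurgent sodium current in fast-firing neurons, had the highest mean, 311 FPKM over the 12 libraries. It ran from 117 through a median of 358 to 477 in SA and from 72.2 through 298 to 510 in MA, so its libraries differed widely within each group. The beta subunits Scn3b, at a mean of 72.6, and Scn2b, at 69.9, were close to each other and lay within each other's spread. Each of these 3 exceeded every sodium alpha gene by its mean.

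Of the 10 sodium alpha genes, 4 reached a mean FPKM of 1 in the striatum. Scn2a, a pore of the axon initial segment and of unmyelinated axons, led with 21.8, from 14.9 through a median of 23.3 to 32.3 in SA and from 9.79 through 21.8 to 32.6 in MA. Scn8a, the pore that dominates the mature initial segment and nodes of Ranvier, had a mean of 10.3, and Scn3a, a pore known mainly from the developing brain, had 7.78. Scn1a, a pore known for its place in fast-spiking inhibitory neurons, was the lowest of the 4 with 1.85. Among the pores best known from other tissues, Scn9a of sensory neurons stood at 0.553, and Scn4a of skeletal muscle, the sensory neuron pores Scn10a and Scn11a and the sodium sensor Scn7a were each under 0.1. Scn10a had the lowest mean of the 10, 0.0131 FPKM.

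Among the high-voltage-activated calcium pores, Cacna1a, the P/Q-type pore of presynaptic terminals, had the highest striatal mean, 12.3, from 8.21 through a median of 12.7 to 15.5 in SA and from 8.59 through 12.9 to 16.2 in MA. The N-type pore Cacna1b (6.39), the R-type pore Cacna1e (4.70), and the L-type pores Cacna1d (4.05) and Cacna1c (3.85) followed, and the last 2 did not differ beyond their spread. The pores of retina (Cacna1f, 0.0163, the lowest of the 7) and skeletal muscle (Cacna1s, 0.0586) stood near 0. Of the T-type pores, which open at low voltage, Cacna1h was highest with 15.5, Cacna1i had 10.3 and Cacna1g was lowest with 1.79.

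Among the accessory calcium channel genes, Cacnb3 was the highest, with a mean of 137 FPKM, and ran from 82.1 through a median of 125 to 167 in SA and from 111 through 144 to 199 in MA. Its beta relatives were Cacnb1 at 64.7, Cacnb2 at 18.7 and Cacnb4, the lowest, at 9.99. Cacna2d3 led the alpha2delta genes with 51.8, and Cacna2d2 (13.6 in SA, 10.4 in MA) and Cacna2d1 (8.61), which encode the binding sites of gabapentin, were lower, while Cacna2d4, known from the retina, had a mean of 0.0560. The TARPs Cacng4 (55.1), Cacng3 (53.5), Cacng7 (50.4) and Cacng8 (34.4) were abundant. Cacng4 and Cacng3 did not differ beyond their spread. Cacng2, the founding TARP, had 9.73 and Cacng5 3.98. Of the remaining gamma genes Cacng1, a subunit of the skeletal muscle channel, had 1.78 and Cacng6 was lowest with 0.0994.

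**Figure D1:**
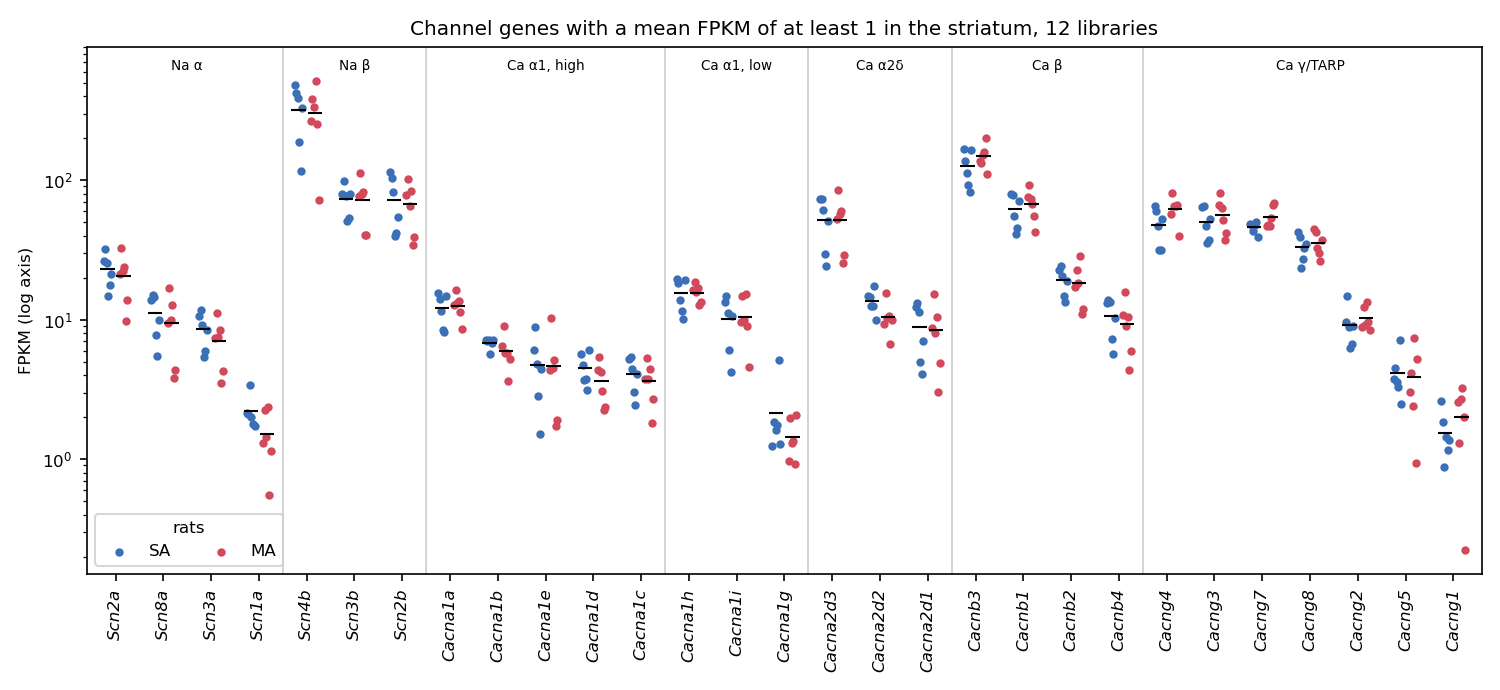
FPKM (log axis) of 29 channel genes with a striatal mean of at least 1, grouped by subunit family and ordered by level. Each point is 1 library (SA blue, MA red) and each line a group mean. Scn4b lies highest at means of 320 (SA) and 302 (MA) with a wide spread, and the points of both groups overlap in every gene.

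Several of the genes are neighbours in the rat genome, and neighbours could differ widely in level. In the RefSeq order of protein-coding genes (assembly GRCr8), Scn2b lies next to Scn4b, Scn3a next to Scn2a, and Scn1a next to Scn9a, which is followed by Scn7a. Cacng6, Cacng8 and Cacng7 follow each other without a gene between, as do Cacng1, Cacng4 and Cacng5. In the latter trio the striatal means were 1.78, 55.1 and 3.98. The first trio had 0.0994, 34.4 and 50.4. A promoter window of 300 bases (250 before and 50 after the annotated start) was given for 27 of the 40 genes, in 30 windows. The CG dinucleotide, counted on the printed strand, which reads the same on both, occurred at a median of 13.5 per window in these and 7 over all 33469 windows. The windows of the adjacent genes Scn4b and Scn2b and of Cacnb3, the gene with the highest follicle level, are shown as examples. They do not reach the top of the range, which was held by Scn8a (60 CG) and Cacna1d (66 CG). Scn4b held 24 CG (18% of all windows held as many or more), Scn2b held 2 (22.3% held as few or fewer), and Cacnb3 held 44 (1.89% held as many or more). All are RefSeq sequence of GRCr8 on the forward strand, at chr8:54343623-54343922, chr8:54322133-54322432 and chr7:131666301-131666600, with each CG in capitals.
Scn4b: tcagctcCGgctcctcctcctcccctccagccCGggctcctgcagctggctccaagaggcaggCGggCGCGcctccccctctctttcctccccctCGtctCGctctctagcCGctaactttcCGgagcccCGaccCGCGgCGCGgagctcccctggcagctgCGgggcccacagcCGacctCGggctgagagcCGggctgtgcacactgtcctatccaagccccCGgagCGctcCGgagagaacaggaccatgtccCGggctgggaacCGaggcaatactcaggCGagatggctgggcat
Scn2b: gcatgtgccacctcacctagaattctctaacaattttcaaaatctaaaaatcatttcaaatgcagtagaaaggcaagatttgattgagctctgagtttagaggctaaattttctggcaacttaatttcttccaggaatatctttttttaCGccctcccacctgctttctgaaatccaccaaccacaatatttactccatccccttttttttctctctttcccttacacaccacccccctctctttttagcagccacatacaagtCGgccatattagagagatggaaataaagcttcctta
Cacnb3: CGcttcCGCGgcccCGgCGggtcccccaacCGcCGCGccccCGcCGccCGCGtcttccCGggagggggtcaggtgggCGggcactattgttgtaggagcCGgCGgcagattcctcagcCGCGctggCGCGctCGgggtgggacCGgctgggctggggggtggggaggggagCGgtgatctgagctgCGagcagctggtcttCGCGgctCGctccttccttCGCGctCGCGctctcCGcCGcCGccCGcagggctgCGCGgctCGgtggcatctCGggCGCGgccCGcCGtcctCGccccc

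MA and SA were compared in the striatum to find channel genes whose transcript level went with MA self-administration. No channel gene differed: 0 of the 30 tested reached an adjusted p under 0.05 with a fold of at least 1.5 by limma on log2(FPKM + 1), where 0.00943% of the 10607 genes tested did (1 gene). By unadjusted p under 0.05, 1 of 30 passed, against 8.26% of all genes tested. In none of the 30 did the 6 MA libraries lie wholly above or below the 6 SA libraries, against 0.358% of all genes. The differences ran from -0.38 to 0.40, with 12 above 0 (50.5% of all genes were) and 18 below, and their median was -0.0882, where that of all genes tested was 0.00223. The design could exclude a change of 1.5-fold (0.585 on this scale) for part of the genes: in 9 of 30 the 95% interval lay within 1.5-fold in both directions, in 16 it reached past 1.5-fold lower and in 10 past 1.5-fold higher, with 5 genes in both counts.

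The gene with the smallest p was Cacna2d2, the alpha2delta subunit named above. It ran from 9.91 through a median of 13.6 to 17.4 FPKM in SA and from 6.72 through 10.1 to 15.4 in MA. The MA libraries lay lower for the most part, but the groups overlapped. The difference was -0.38 (95% interval -0.73 to -0.03), and limma gave an adjusted p of 0.597. The other 2 alpha2delta genes tested, Cacna2d1 and Cacna2d3, had differences of -0.09 and -0.01, so all 3 lay below 0 and none passed the adjusted test.

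All 4 sodium alpha genes tested were also below 0, with a median difference of -0.282. Scn1a was the furthest from 0 among them. Its SA libraries ran from 1.72 through 2.05 to 3.42 FPKM and its MA libraries from 0.555 through 1.37 to 2.35. The groups overlapped, and the difference of -0.38 (95% interval -0.78 to 0.02) had an adjusted p of 0.618 by limma. Scn8a had -0.28, Scn3a -0.28 and Scn2a -0.20. The alpha subunits shared a sign, and the interval of each spans 0. The signs of the alpha, alpha2delta and gamma genes were the same after quantile normalization and after scaling to a common median.

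The gamma and TARP genes leaned the other way, with 6 of 7 above 0 and a median of 0.165, and none passed. Some marker lists of other cells also lay above 0 in MA: 7 of 8 astrocyte, 7 of 7 microglia and 3 of 3 erythrocyte markers tested did. Of these, 5, 3 and 3 had an unadjusted p under 0.05 (8.26% of all genes) and 0 passed the adjusted test by limma. Other lists leaned below 0, with 2 of 8 oligodendrocyte, 3 of 8 Schwann cell and peripheral nerve and 2 of 6 striatal interneuron markers above it. None of the latter had an unadjusted p under 0.05 by limma. The summed FPKM ran from 2586 to 3309 in SA and from 2411 to 5716 in MA for astrocyte markers, from 216 to 338 and from 193 to 547 for microglia markers, and from 339 to 850 and from 606 to 5376 for erythrocyte markers. The SA and MA ranges overlapped in each list, and the part of these cells in the differences of channel genes was not tested. Cacng4 ran from 31.4 through 49.7 to 64.8 FPKM in SA and from 39.99 through 64.9 to 81.5 in MA. Its difference was 0.40 (95% interval -0.04 to 0.84, adjusted p 0.629 by limma), and the groups overlapped over most of their range. Cacng7, a TARP of the type II group, ran from 39.2 through 47.5 to 49.7 in SA and from 46.6 through 50.5 to 68.3 in MA. The MA libraries 4 and 5 were the highest, and the difference was 0.24 (95% interval -0.00107 to 0.472, adjusted p 0.603 by limma).

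Among the other genes with the smallest p, Cacna1d (-0.27, adjusted p 0.703), Cacna1b (-0.20, 0.71) and Cacna1g (-0.30, 0.727) were lower and Cacnb3 (0.26, 0.71) was higher in MA, each by limma with an interval that spans 0. In Cacna1g a single SA library at 5.14 FPKM lay above the other 11, which ran from 0.928 to 2.08, and the difference was -0.09 without it. For Scn4b, the gene with the highest level, the difference was -0.14 with a 95% interval of -1.11 to 0.83 (adjusted p 0.95 by limma), the widest of the 30. It became 0.227 without MA library 5.

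**Figure D2:**
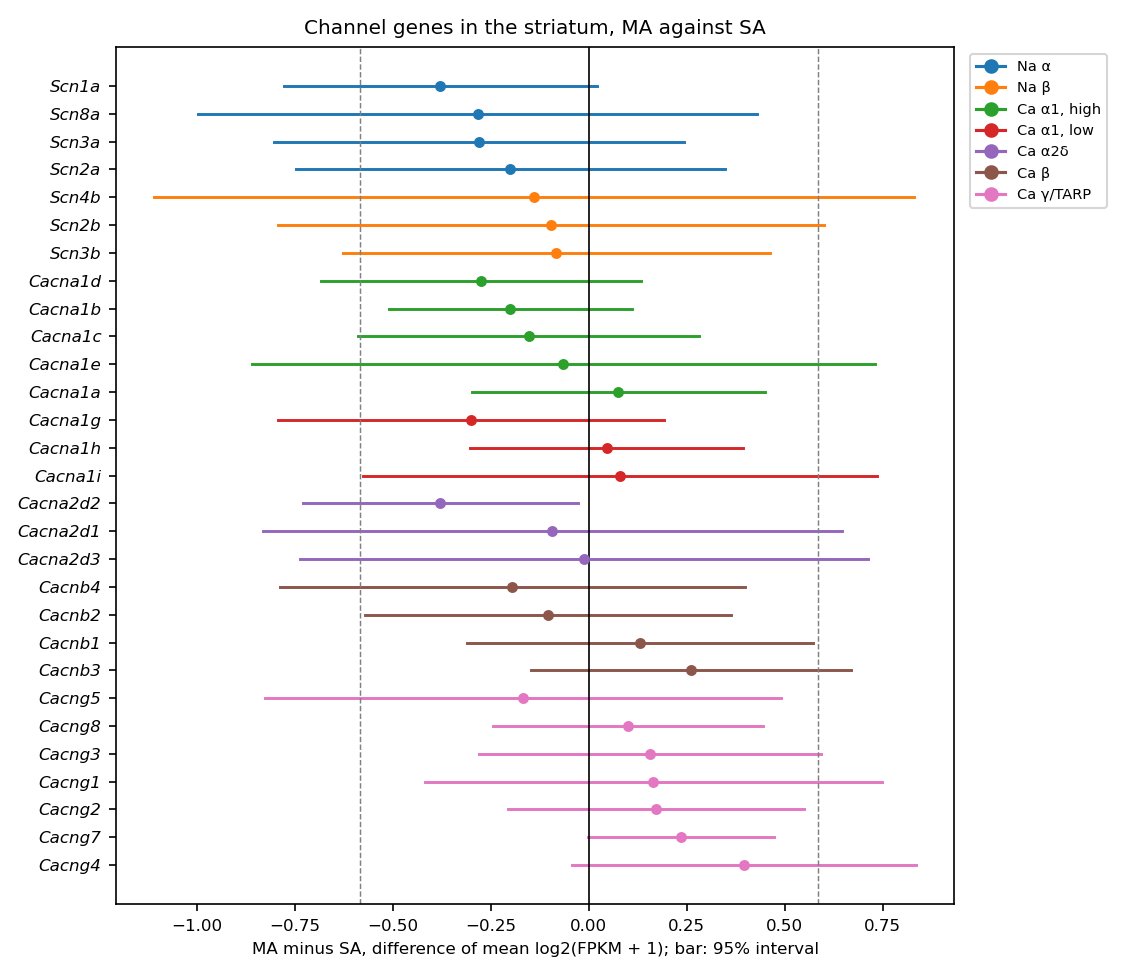
Difference of mean log2(FPKM + 1) between MA and SA striatum (x axis) for 29 channel genes tested, with points for the difference and bars for its 95% interval from limma, coloured by subunit family. Dashed lines mark a fold of 1.5 in either direction. The interval of Cacna2d2 (-0.73 to -0.03) is the only plotted 1 that does not reach 0, and its adjusted p was 0.597.

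The channel genes varied more between striatum libraries than genes in general. The SD of log2(FPKM + 1) over the 12 libraries had a median of 0.416 for the 30 genes and 0.214 for all 10607 tested, and 29 of the 30 lay above the latter. This spread went with a score of medium spiny neuron markers, the median deviation of 10 genes from their means over the 12 libraries. The score was lowest in MA library 5 (-0.918), SA library 4 (-0.908), SA library 3 (-0.559) and MA library 4 (-0.213), and it was 0.0781 to 0.518 in the other 8, so 2 libraries of each group were low. The use of this score was chosen after values were seen.

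In 17 of the 30 channel genes the 4 lowest libraries were exactly these 4, as they were in 8.89% of all genes tested. Scn4b was at 72.2 (MA 5), 117 (SA 4), 186 (SA 3) and 252 FPKM (MA 4), and at 264 to 510 in the other 8. Cacna2d3 was at 24.4 to 29.4 in the 4 and at 51.0 to 85.2 in the others, with no overlap. Scn8a was at 3.79 to 7.82 in these 4 libraries and at 9.38 to 16.8 in the rest. The 17 also held Scn2a, Scn3a, Scn2b, Scn3b, Cacna1a, Cacna1c, Cacna1e, Cacna1h, Cacna1i, Cacna2d1, Cacnb1, Cacnb2, Cacnb4 and Cacng3. The dopamine and cAMP regulated phosphoprotein gene Ppp1r1b, 1 of the 10 markers, stood at 917 (MA 5) and 979 (SA 4) FPKM against 1347 to 2528 in the other 10.

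Other channel genes did not go along. Cacng7 was highest in MA libraries 5 (68.3) and 4 (65.9). Cacna1g, the T-type pore prominent in thalamic relay neurons, was at 5.14 in SA library 4 and 2.08 in MA library 5, its highest levels. In these 2 libraries Slc17a6, the vesicular glutamate transporter of subcortical neurons, stood at 6.82 (SA 4) and 1.35 FPKM (MA 5), against 0.0182 to 0.802 in the others. The summed level of the 5 subcortical glutamatergic markers ran from 11.2 to 70.1 in SA and from 14.6 to 31.8 in MA, with its highest value in SA library 4. The part of tissue composition in the differences between libraries was not tested.

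The comparison of MA with SA was repeated with 2 alternatives chosen after seeing the data. With the marker score as a covariate, no channel gene passed the adjusted test, and 5 of 30 had an unadjusted p under 0.05, against 13.1% of all genes. The smallest was that of Cacng4, with a difference of 0.38 (95% interval 0.19 to 0.56, unadjusted p 0.000728 and adjusted p 0.26 by limma), and Cacng7, Cacna2d2, Scn1a and Scn3a were the others. Without SA library 4 and MA library 5, 0 channel genes passed.

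**Figure D3:**
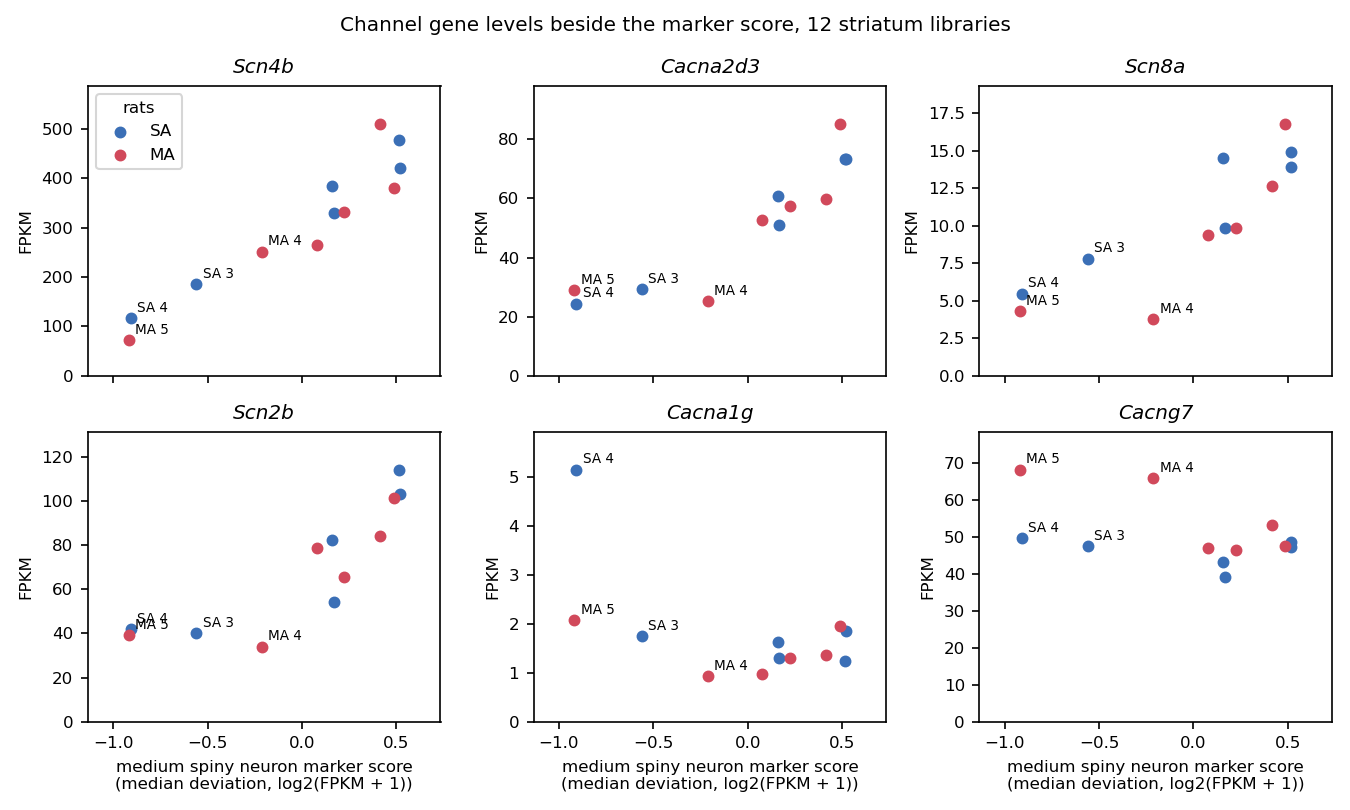
FPKM of 6 channel genes (y axes from 0) against the medium spiny neuron marker score (x axis) in the 12 striatum libraries, SA blue and MA red, with the 4 lowest-scoring libraries named. Scn4b, Cacna2d3, Scn8a and Scn2b are lowest in those 4, while Cacng7 is highest in MA 5 (68.3) and MA 4 (65.9) and Cacna1g in SA 4 (5.14).

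In the whisker follicle, 2 channel genes had a mean FPKM of at least 1, and neither differed between MA and SA. Cacnb3 ran from 21.9 through a median of 24.8 to 31.4 in SA and from 20.8 through 25.4 to 30.0 in MA. The groups overlapped almost completely, and the difference was -0.03 (adjusted p 0.919 by limma). By limma 0% of the 9138 follicle genes tested passed the adjusted test, and 10.4% had an unadjusted p under 0.05, among them neither of the 2 channel genes. Without SA library 0, 1219 follicle genes passed and 0 of them were channel genes. With no filter on level, 33 channel genes were tested and 0 passed.

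Genes just under the minimum were Cacnb1, from 0.869 through 1.07 to 1.20 in SA and from 0.426 through 0.973 to 1.34 in MA, and Cacna2d3, from 0.464 through 0.992 to 1.24 in SA and from 0.422 through 0.661 to 0.926 in MA. In Cacna2d3, 5 of the 6 SA libraries (0.950 and above) exceeded every MA library, and SA library 0 (0.464) fell among the MA values. How many other follicle genes have this pattern is not given, and 1219 follicle genes passed once SA library 0 was left out. The pattern is therefore not shown to be particular to Cacna2d3, which was under the minimum for the main test. These genes were named after their values were seen.

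Whisker SA library 5 carried some neuronal channel transcripts that the other follicle libraries lacked or held at lower level. This did not hold for all: Scn2b was at 0.276 FPKM in it and at 0.322 in MA library 0. Of the 30 channel genes expressed in the striatum, 21 were above 0 in SA library 5 and 21 in MA library 2. It was the highest follicle library for 10 of the 30 channel genes expressed in the striatum. Over the 771 genes with a mean of at least 10 in the striatum and under 1 in the follicle it was the highest for 44.9%, and the next library, SA 0, for 14.7%. Scn4b was at 2.48 in it and at most 0.906 in the other 11, and Scn3b was at 0.569 against at most 0.0780. Cacng7 was at 0.289 and listed at 0 in every other follicle library.

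As a share of the mean in SA striatum, Scn4b and Scn3b in this library came to 0.777% each, Cacng7 to 0.629% and Cacng8 to 2.10%. The shares of Cacng3 and Scn2b were 0.487% and 0.380%. Genes of striatal cells outside the channel families that were looked at had shares from 0.288% (Snap25) to 0.837% (Pde10a). Among them were Ppp1r1b at 0.659%, the opioid peptide gene Penk at 0.518%, and the myelin gene Mbp at 0.792%. Ppp1r1b stood at 12.4 FPKM in this library and at up to 5.14 in the other follicle libraries. The source of these transcripts was not tested. Without the library Cacnb3 differed between MA and SA by -0.0227, and 0 channel genes passed.

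**Figure D4:**
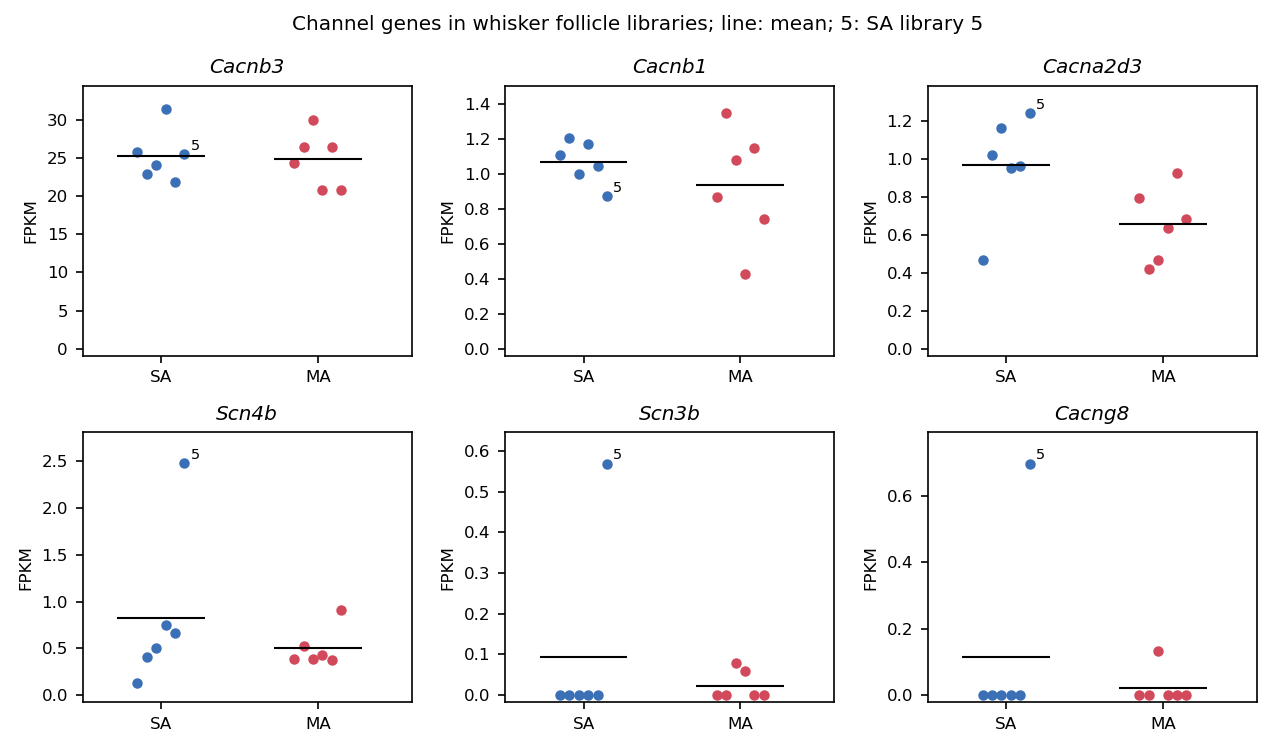
FPKM of 6 channel genes in the whisker follicle libraries of SA (blue) and MA (red) rats, 1 point per library with a line at the group mean, and SA library 5 marked. Cacnb3 (20.8 to 31.4) is present in every library, while Scn3b and Cacng8 are at or near 0 except in SA library 5.

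The tissues were compared within SA and within MA rats. Most of the genes tested passed the filter on level through the striatum alone, and so had to differ, which makes the counts a description. The 2 genes with a mean of at least 1 over the follicle libraries, Cacnb3 among them, also passed through the follicle. For those 2 the filter did not fix the difference. In SA rats 29 channel genes were tested, and all 29 were higher in the striatum by limma (42.5% of the 10952 genes tested were). In MA rats the same held for 28 of 28 (41.4% of 10953). The 6 striatum libraries lay above all 6 follicle libraries in each of the 29 and 28, where the groups did not overlap in 67.7% and 72.4% of all genes. The median difference was 3.43 in SA, where that of all genes was 0.243, and 3.51 in MA, where it was 0.216. Quantile normalization put the median of all genes at -0.0958 in SA and that of the channel genes at 2.82, with Cacna1g turned below 0.

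On the log2(FPKM + 1) scale, the largest differences in SA rats were those of 3 sodium beta genes, Scn4b (7.40, SE 0.348), Scn3b (6.07, SE 0.176) and Scn2b (5.97, SE 0.249). Their ratios of mean FPKM rested on low follicle levels and on whisker SA library 5. The ratio of Scn4b was 388 with this library and 649 without it, and that of Scn2b was 816 and 1407. Scn3b had a ratio of 772 and was listed at 0 in the other 5 SA follicle libraries. By this ratio the order was another, with the pore genes Scn2a (1469) and Cacna1h (1233) above all 3 when every library was kept, and both pore genes were at 0 in those other 5. On the log2 scale the sodium alpha genes ran from 1.65 for Scn1a, which was listed at 0 in every SA follicle library, to 4.52 for Scn2a. High-voltage calcium pores ran from 1.86 for Cacna1c (10.8-fold) to 3.43 for Cacna1a (65.4-fold). The T-type pores ran from 1.10 for Cacna1g (5.61-fold) to 3.98 for Cacna1h, the alpha2delta genes from 3.16 for Cacna2d1 to 4.65 for Cacna2d3 (53.9-fold), and the gamma genes from 2.30 for Cacng5 to 5.56 for Cacng4, both at 0 in the follicle.

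Among the calcium beta genes the range was from 2.23 for Cacnb3 to 4.88 for Cacnb1 (58.1-fold). Cacnb3 was 4.99-fold higher in the striatum of SA rats and 5.97-fold in MA rats, the smallest ratio in either among the genes tested that had a follicle mean above 0. Its 95% interval on the log2 scale was 1.85 to 2.61 in SA and 2.23 to 2.81 in MA.

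**Figure D5:**
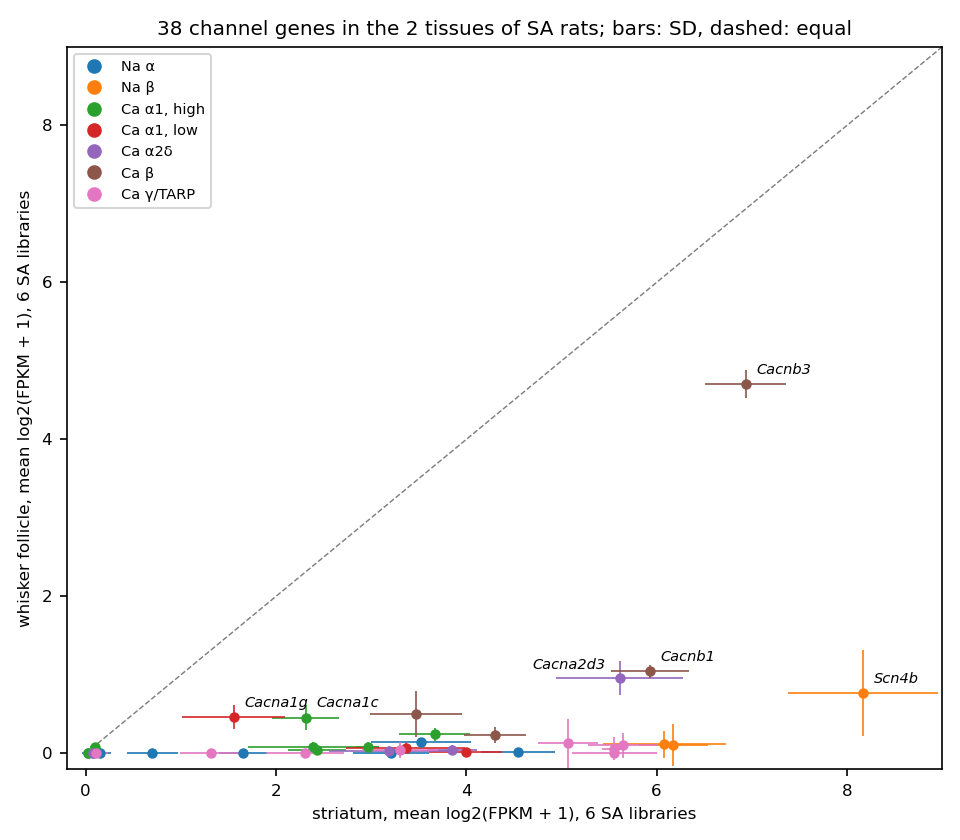
Mean log2(FPKM + 1) of 38 channel genes in the striatum (x axis) and the whisker follicle (y axis) of SA rats, with bars for the SD over 6 libraries and colours for subunit families. The dashed line marks equal levels. Cacnb3 lies highest on the follicle axis, and Scn4b lies furthest to the right.

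An interaction term over all 24 libraries was used to compare the MA effect in one tissue with that in the other. Of 28 channel genes 0 passed by limma, against 0.0091% of 10985 genes, and 1 had an unadjusted p under 0.05, against 11.4%. It was Cacng7, with an effect 0.30 lower in the follicle (95% interval -0.593 to -0.000202, adjusted p 0.44 by limma), where its FPKM was 0 in 11 of the libraries.

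Partner genes were taken from lists of proteins that bind or anchor the channels and of proteins that handle calcium inside the cell. In the striatum 0 of 16 sodium channel partners, 0 of 16 calcium channel partners and 0 of 17 calcium handling genes differed between MA and SA by limma, and by unadjusted p under 0.05 also 0 in each list, against 8.26% of all genes. Above 0 were 8 of 16, 12 of 16 and 3 of 17. The smallest p among the sodium channel partners was that of Fgf13, an intracellular FGF that binds the alpha subunit tail, at 38.6 to 63.4 FPKM in SA and 45.3 to 86.0 in MA (difference 0.29, adjusted p 0.643). Rem2, a small GTPase that inhibits calcium channels through the beta subunit, ran from 15.7 to 35.2 in SA and from 16.2 to 70.3 in MA (0.59, adjusted p 0.619 by limma). The MA libraries 0, 1, 2 and 3 exceeded every SA library, and MA library 5 lay at the low end. How many other striatal genes have this pattern is not given, so it is not shown to be particular to Rem2. In the calcium handling list the calcium release channel Itpr1 had a difference of 0.46 (adjusted p 0.695 by limma).

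In the follicle 8, 5 and 11 genes of these lists were tested and 0 passed the adjusted test by limma, with 0, 1 and 1 at an unadjusted p under 0.05, where 10.4% of all genes tested in the follicle had one. The 2 were Fmr1, the fragile X protein gene (-0.36, adjusted p 0.465), and Ppp3cb, a catalytic subunit of calcineurin (0.64, adjusted p 0.465 by limma). Between tissues in SA rats, 14 of 16 sodium channel partners, 11 of 14 calcium channel partners and 16 of 18 calcium handling genes were higher in the striatum, where 42.5% of the 10952 genes tested were. In 8, 8 and 7 of the genes tested in these lists the follicle mean was under 1 FPKM, so these passed the filter through the striatum and the counts are a description. The adhesion molecule Cntn1 (5.31 on the log2 scale), the presynaptic scaffold Rimbp2 (3.20) and the calcium pump Atp2b2 (5.82) were among those higher. Lower in the striatum were S100a10, an annexin partner known to carry a sodium channel to the surface (-7.44 on the log2 scale), and the calcium release channel Itpr3 (-4.41). Their adjusted p by limma was 6.61e-10 and 3.52e-12. S100a10 ran from 519 to 2803 FPKM in the SA follicle and from 3.89 to 16.4 in the SA striatum.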

How the data were processed

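PolyA RNA of 24 libraries was sequenced as paired-end reads. The values are FPKM, which the authors computed with Cufflinks and deposited as 1 table of 17711 genes. The paper gives Cutadapt for trimming and TopHat2 with rn6 for alignment. The processing notes of the submitters give STAR 2.6.0c in place of TopHat2, with bcl2fastq, rn6 and Cufflinks 2.2.1. The paper gives an approximate number of reads per sample. No read counts were used, so the depth of single libraries and counting error are unknown and errors rest on the spread between libraries alone. Each column was assigned to its group by name, and all 24 were used.

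Values were tested as log2(FPKM + 1) with limma 3.58.1 (intensity trend, R 4.3.3) where the mean over the libraries compared was 1 FPKM or more. Fold changes on this scale understate the change of low genes. A call required a Benjamini-Hochberg adjusted p under 0.05, over all genes tested, and a fold of at least 1.5, and all tests were two-sided. The labels give each library of a group as a separate rat. Both tissues came from the same rats and were compared as unpaired.

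The channel genes and gene lists were chosen with earlier results of these data known. Values were given for the 8 smallest p per tissue, the highest and lowest striatal mean per family, every gene with a follicle mean of at least 1, the largest and smallest tissue difference per family, and up to 3 partners per list. Other genes were named after their values were seen. Some genes counted here are not reported by name. Alternatives were pseudocounts of 0.1 and 0.5, no filter, a mean of at least 5, and quantile and median scaling. Fits without the intensity trend, with weighted libraries and without each library were also run. Others changed the call to adjusted p alone, to unadjusted p under 0.05 with the fold, or, outside the interaction, to a fold of mean FPKM. The SA tissue contrast was also fitted with the libraries of all groups. The fits were tested on simulated data.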

Additional observations from a re-analysis of the deposited data

Results flagged for a closer look

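In 6 of 68 groups of 6 libraries, 1 library lay apart from the other 5 by Dixon's test on log2(FPKM + 1), where chance gives about 1 in 20. In the striatum these were Scn4b at 72.2 FPKM in MA library 5 (others 252 to 510) and Cacna1g at 5.14 in SA library 4 (1.24 to 1.86). Scn1a stood at 3.42 in SA library 2 (1.72 to 2.15), and Cacna1b stood at 5.63 in SA library 3 (6.83 to 7.15). In the whisker follicle, Scn4b was at 0.906 in MA library 5 (0.371 to 0.521) and Cacna2d3 at 0.464 in SA library 0 (0.950 to 1.24).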

How the results depend on the processing

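No channel gene passed in MA against SA, in either tissue or in the interaction, under any alternative run (without a library, 0 to 0 in each). The count of channel genes higher in the striatum was 28 to 29 in SA and 27 to 28 in MA rats without 1 library each, and 19 and 18 at a mean FPKM of at least 5, where 19 and 18 were tested. The difference between MA and SA was followed through the alternatives for only some of the genes named. In the striatum these were Cacna2d2, Cacng7, Scn1a, Cacng4, Cacna1d, Cacna1b, Cacnb3, Cacna1g and Scn4b, and in the follicle Cacnb3. Other genes, among them Cacna2d1 and Cacna2d3, were not followed without single libraries, so their signs may rest on 1 library. Of those followed, Scn4b changed sign in the striatum (-0.398 to 0.227, above 0 without MA library 5 or SA library 0). Cacnb3 did so in the follicle (-0.0829 to 0.0344, above 0 without SA library 3, MA library 3 or MA library 5). The cause was not tested. Over all genes, the striatal count of 1 became 0 to 4 without 1 library (4 without MA library 5), 0 at a mean of at least 5, and 62 with an unadjusted p. By the main rule it was 3 without SA library 4 and MA library 5, an alternative chosen after seeing the data. The follicle count of 0 became 1160 with weighted libraries, 1219 without SA library 0 and 336 with an unadjusted p and the same fold. The interaction count of 1 became 1389, 1240 and 605 under the same alternatives, and 0 to 6 under the others. No paired analysis was possible because the column index is not tied to a rat number, so the replicate block was not run. The depth of single libraries is unknown, and a level under 1 FPKM is compressed by the pseudocount.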
